A study of Homo sapiens with 6 samples.

Results

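Interferon response and antigen presentation genes were followed in the BT-549 line, derived from a triple negative breast cancer, after culture in adipocyte conditioned medium (ACM) or unconditioned medium (UCM). The 49 genes were chosen by symbol, and all 49 were found among the 63140 genes listed. They comprise 5 chains of MHC class I, 6 genes of peptide loading with the class I transactivator, 6 receptor and kinase genes, 6 transcription factors and 26 interferon-stimulated genes. Of these, 43 had enough counts to be tested, beside 14451 genes tested in all. RNA was sequenced from 3 libraries of wild-type BT-549 cells in ACM and 3 in UCM, each after 24 h in a 6-well plate. The labels give 50% ACM, whereas the supplement to the paper describes it as undiluted. ACM came from cultures of OP9, a mouse line differentiated into adipocytes, in a medium with insulin and oleate. Both groups are 1 cell line with no added transgene, and the line's own medium held tetracycline-approved fetal bovine serum and insulin. The formula of UCM is not given in the sources used here, so base medium, serum, oleate and insulin cannot be told apart from what the adipocytes secreted. The sources do not say that replicates came from separate passages, so p-values measure the spread between these libraries, which may be technical.

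Interferons are secreted proteins that bind paired receptor chains, IFNAR1 with IFNAR2 for type I interferons and IFNGR1 with IFNGR2 for interferon gamma. Janus kinases on those chains activate STAT proteins, which with IRF9 or as dimers enter the nucleus and switch on interferon-stimulated genes at short DNA elements, the ISRE and the GAS. Many of these genes encode antiviral proteins. Interferon also raises MHC class I, the surface complex of a heavy chain (an HLA protein) and the light chain B2M that shows peptides to CD8+ T cells. Peptides are pumped into the endoplasmic reticulum by TAP1 and TAP2, trimmed by ERAP1 and ERAP2, and loaded with the help of tapasin (TAPBP), and NLRC5 is a transactivator of the class I genes.

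Levels of the members, compared between genes as TPM, which RSEM scales by gene length and by the library's sum, spanned a wide range. B2M was the highest, with 838 to 1091 TPM over the 6 libraries. The membrane restriction factor IFITM3 followed with 291 to 471 TPM, and the ubiquitin-like protein ISG15 with 158 to 242 TPM. The ranges of B2M and IFITM3 stood clear of every other member, whereas ISG15 overlapped the next in order, TAPBP at 166 to 195 TPM. HLA-B, at 11.8 to 29.7 TPM, lay far below HLA-C at 143 to 199 TPM and HLA-E at 93.2 to 126 TPM. Classical antiviral genes were near the bottom, with IFIT1 at 0.41 to 0.83 TPM, IFIT2 at 0.33 to 0.61 TPM and MX1 at 0.30 to 1.94 TPM. The 6 members that could not be tested were HLA-F, IFI27, IFITM2, OAS1, OAS2 and OASL, none with more than 16 counts in the 6 libraries together. A count of 0 allows up to 3 counts, which is 0.142 to 0.175 CPM (counts scaled to the size of the library) in these libraries, and such limits cover counting error only.

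**Figure D1:**
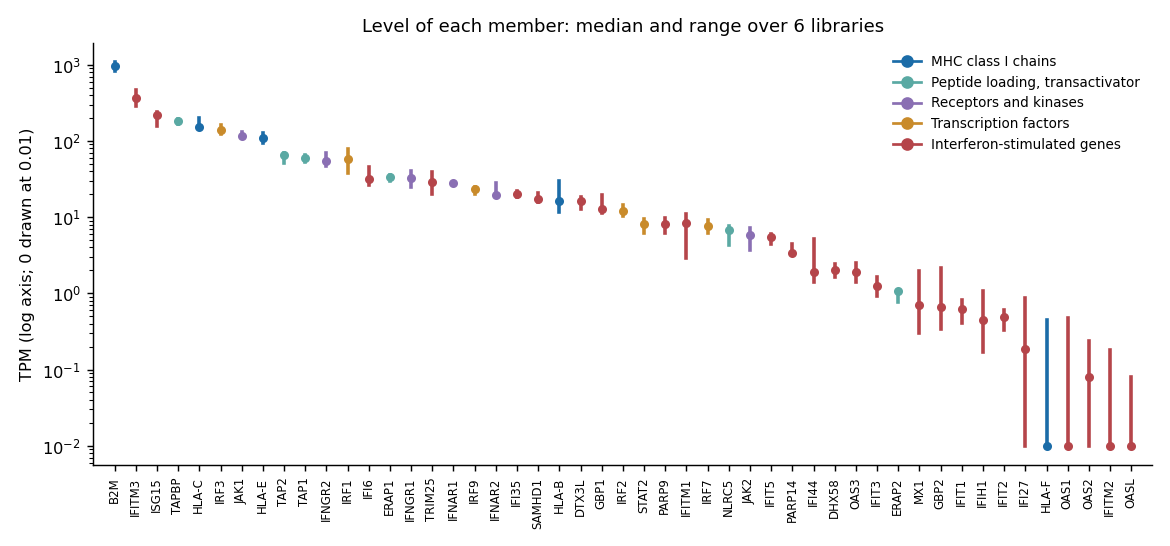
Level of each of the 49 members in TPM on a log axis, ordered by mean, with the median (point) and the range (line) over the 6 libraries and colors for the 5 groups of members. B2M reached 838 to 1091 TPM, and the members at the right end were at or near 0.

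Libraries held 17135288 to 21053257 expected counts, the RSEM estimate of reads per gene. UCM 2 and UCM 3 lay closest to each other, with a chi-square of 2.32 per gene, against 13.1 to 21.5 for the other pairs within a group, so no library was counted as a copy. The labels call the cells epithelial. Of 8 epithelial markers, ERBB2 had 1253 to 1564 counts and CDH1 8 to 34, while EPCAM, KRT8, KRT18, KRT19, ESR1 and PGR had at most 14 in any library, and the summed level of the 8 was 74.5 to 76.3 CPM in ACM and 63.2 to 75.0 CPM in UCM. The mesenchymal VIM had 51679 to 63093 counts. Of 9 immune cell markers, CD3E, MS4A1, LYZ and NKG7 were at 0 in every library and PTPRC had 3 to 6 counts, and their summed level was 12.9 to 29.7 CPM in ACM and 6.06 to 7.34 CPM in UCM. Nearly all of that sum was CD68, a lysosomal protein of macrophages that other cells also make. CD68 had 139, 89 and 92 counts in UCM, against 255, 516 and 295 in ACM (log2 FC 1.76, edgeR adjusted p = 0.0335). That call was lost under 4 of 15 alternatives, among them without UCM 1 (1.91), UCM 2 (1.66) or UCM 3 (1.74). Of 7 adipocyte markers, ADIPOQ, LEP and CIDEC were at 0, PLIN1, FABP4 and LPL had at most 2 counts, and the summed level was 11.4 to 14.2 CPM in ACM and 9.33 to 12.2 CPM in UCM. Nearly all of the adipocyte sum was PPARG, which had 195 to 252 counts and was not called (log2 FC 0.24, edgeR adjusted p = 0.365). The part of CD68 in the results below was not tested.

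Promoter sequences were examined for the elements that interferon-activated factors bind. The RefSeq windows, from 250 bases before to 50 after a gene's start on GRCh38.p14, were given for 37 of the 49 members. Where a gene had several windows the first one was read. The 5 windows that follow are written 5′ to 3′ along the gene's strand, cut to the 250 bases before the start. They are ISG15 as a typical interferon-stimulated gene (chr1:1013247-1013496, plus strand), the class I genes B2M (chr15:44711267-44711516, plus strand) and HLA-B (chr6:31357180-31357429, minus strand), and IFNGR2 (chr21:33403163-33403412, plus strand) and TRIM25 (chr17:56914050-56914299, minus strand), which rose in ACM. Capitals mark the ISRE core GAAANNGAA and the kappaB consensus, a site of NF-κB, on either strand.
ISG15: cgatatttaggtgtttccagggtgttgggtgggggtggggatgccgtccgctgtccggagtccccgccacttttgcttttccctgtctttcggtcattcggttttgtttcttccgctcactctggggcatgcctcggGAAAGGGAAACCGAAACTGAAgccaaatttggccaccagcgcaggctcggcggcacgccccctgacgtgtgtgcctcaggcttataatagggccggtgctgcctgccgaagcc
B2M: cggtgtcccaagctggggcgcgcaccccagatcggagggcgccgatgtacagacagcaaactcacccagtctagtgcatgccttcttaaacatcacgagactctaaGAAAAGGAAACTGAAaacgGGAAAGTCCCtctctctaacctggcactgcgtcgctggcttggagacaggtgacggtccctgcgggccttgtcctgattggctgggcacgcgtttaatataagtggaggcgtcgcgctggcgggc
HLA-B: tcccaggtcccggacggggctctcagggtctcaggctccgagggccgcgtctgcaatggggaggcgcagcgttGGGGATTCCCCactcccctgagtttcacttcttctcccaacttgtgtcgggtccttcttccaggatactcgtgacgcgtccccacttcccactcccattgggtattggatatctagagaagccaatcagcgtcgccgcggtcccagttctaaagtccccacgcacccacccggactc
IFNGR2: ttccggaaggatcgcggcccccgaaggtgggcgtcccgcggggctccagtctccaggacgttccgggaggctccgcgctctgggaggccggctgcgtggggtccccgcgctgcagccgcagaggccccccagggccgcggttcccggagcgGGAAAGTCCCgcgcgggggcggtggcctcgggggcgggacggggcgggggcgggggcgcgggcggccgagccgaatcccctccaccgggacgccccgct
TRIM25: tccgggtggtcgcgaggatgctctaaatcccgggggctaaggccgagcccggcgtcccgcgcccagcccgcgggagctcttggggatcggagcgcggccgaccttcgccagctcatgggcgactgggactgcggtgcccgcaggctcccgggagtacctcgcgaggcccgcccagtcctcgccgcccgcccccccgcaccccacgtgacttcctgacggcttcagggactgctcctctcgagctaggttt
ISG15 carries 3 overlapping copies of the ISRE core, beginning 113, 107 and 101 bases before the start. B2M carries 2 overlapping copies, at 144 and 138 bases before the start, followed by a kappaB match at 125. HLA-B holds 2 overlapping kappaB matches, at 177 and 176 bases before the start, and the match at 177 reads on both strands. IFNGR2 holds a kappaB match at 99. In the TRIM25 window none of these letters, nor GAS (TTCNNNGAA), occurs, which says nothing about the factors.

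Across groups, the ISRE core was in 15 of 20 windows of interferon-stimulated genes, 4 of 5 of peptide loading genes, 2 of 4 of class I chains, 0 of 5 of receptors and kinases and 0 of 3 of transcription factors, against 8.1% of all 35116 windows. GAS was in 7 of 37 member windows, against 7.7% of all. The kappaB consensus was in 12 of 37 member windows, against 7.7% of all, with 3 of 4 for class I, 3 of 5 for peptide loading, 2 of 5 for receptors and kinases, 1 of 3 for transcription factors and 3 of 20 for interferon-stimulated genes. Tested members with the ISRE core had a median log2 FC of 0.12 over 19 genes, of which 12 had values above 0, 4 were higher at the unadjusted p-value and 0 at the adjusted one. Tested members with a window that lacked it had a median of 0.16 over 15 genes, of which 12 had values above 0, 4 were higher at the unadjusted p-value and 2 at the adjusted one. Tested members with no window given, GBP2 among them, are in neither set. Over all genes tested by edgeR, 48.1% had values above 0, 11.9% were higher at the unadjusted p-value and 3.35% at the adjusted one. The matches are a description of the windows and were not tested.

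ACM was compared with UCM to ask which genes the conditioned medium moved. Of the 43 members tested, 3 rose in ACM by edgeR's quasi-likelihood test with Benjamini-Hochberg adjustment over all genes (adjusted p at or below 0.05) and none fell. These were the interferon gamma receptor chain IFNGR2, the E3 ligase TRIM25, which modifies the RNA sensor RIG-I, and the guanylate-binding protein GBP2. In GENCODE 44 on GRCh38, IFNGR2 lies on chr21:33403413-33479348 (plus strand), TRIM25 on chr17:56836387-56914080 (minus strand) and GBP2 on chr1:89106132-89150456 (minus strand), and all 3 are protein-coding. Together they are 6.98% of members, where 3.35% of all genes tested rose and 2.21% fell. DESeq2 called 4 members higher and 0 lower, where it called 1206 of all 14451 genes in either direction. At an unadjusted p at or below 0.05, 10 members were higher (23.3%, against 11.9% of all genes) and 0 were lower (against 11.5%), and DESeq2 put 1 lower. UpDEGs, with that p-value and a log2 FC of at least 0.58, numbered 3 (against 4.12%), namely TRIM25, GBP2 and IFITM1, and there were 0 DownDEGs (against 1.71%). All 3 ACM values of CPM lay above all 3 UCM values for 8 members (18.6%, against 13.9%) and below them for 1 (2.33%, against 15.1%). Fitted values were above 0 for 31 members (72.1%, against 48.1%), and the median log2 FC was 0.13, against -0.01 for all genes tested. That median was 0.06 without ACM 2, 0.08 without ACM 3 and 0.20 without ACM 1. The members share libraries and regulators, so they do not count as independent. In bulk RNA a change in the share of cells and a change in RNA per cell cannot be told apart.

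**Figure D2:**
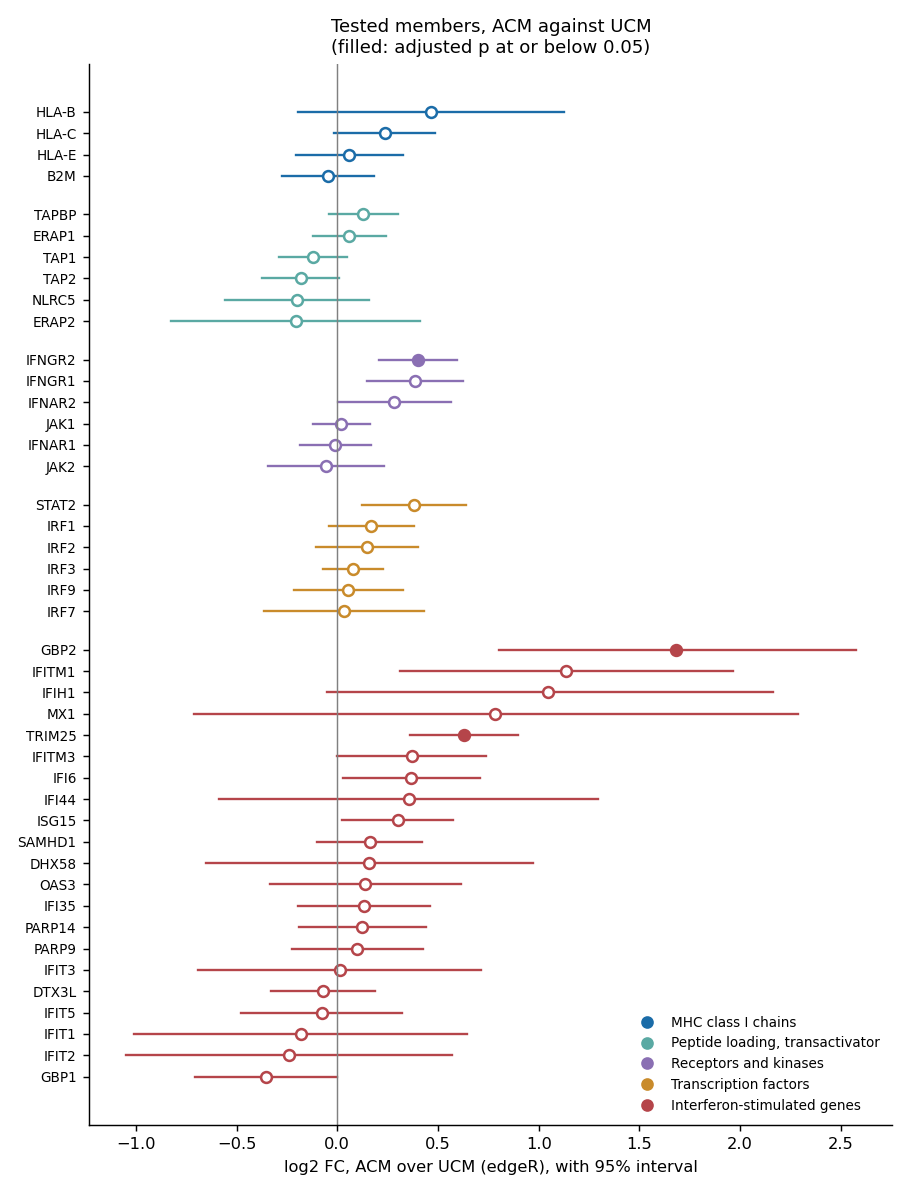
Fitted log2 FC of ACM over UCM for the 43 tested members (points) with 95% intervals (lines), grouped by role, filled where the adjusted p was at or below 0.05. IFNGR2, TRIM25 and GBP2 are filled, and the 4 class I intervals include 0.

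Of 6 receptor and kinase genes, 1 rose at the adjusted p-value (against 3.35% of all genes) and 3 were higher at the unadjusted one (against 11.9%). IFNGR2, which carries JAK2 in the interferon gamma receptor, stood at 56.8, 68.5 and 58.1 CPM in ACM and 47.8, 45.3 and 45.9 CPM in UCM. Every ACM library was higher than every UCM library, and IFNGR2 rose with a log2 FC of 0.40 (SE 0.09, edgeR adjusted p = 0.0301). Its ligand-binding partner IFNGR1 was at 42.6, 52.1 and 43.8 CPM in ACM and 37.9, 31.1 and 36.7 CPM in UCM. The IFNGR1 groups did not overlap either, with a log2 FC of 0.39 (SE 0.11, adjusted p = 0.0644), which missed the threshold, while DESeq2 called it. IFNAR2, a chain of the type I receptor, was at 28.8, 40.9 and 32.0 CPM in ACM and 28.3, 26.2 and 28.9 CPM in UCM. ACM 1 lay within the UCM range of IFNAR2, and its log2 FC was 0.28 (SE 0.13, adjusted p = 0.211), or 0.13 without ACM 2. A readthrough gene on the same strand, IFNAR2-IL10RB, had 0, 9 and 19 counts in ACM against 0, 52 and 1 in UCM, so UCM 2, the lowest library for IFNAR2, was the highest for the readthrough. The other type I chain IFNAR1 and the kinases JAK1 and JAK2 had fitted values from -0.06 to 0.02, and each took the opposite sign under at least 1 alternative.

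The call of IFNGR2 leaned on single libraries. It was lost without ACM 2 (log2 FC 0.31, adjusted p = 0.1), ACM 3 (0.43, 0.0571), UCM 2 (0.38, 0.135) or UCM 3 (0.40, 0.102), and also on the TPM scale and with effective lengths as offsets. TMEM50B, a gene on the opposite strand that overlaps IFNGR2, also rose, from 637, 663 and 586 counts in UCM to 880, 862 and 790 in ACM (log2 FC 0.42, adjusted p = 0.0348). Whether counting used strand is not given in the sources used here, so reads from the shared stretch cannot be told apart.

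Transcription factors all had fitted values above 0 (against 48.1% of all genes). None passed the adjusted p-value in the main edgeR fit or by DESeq2, while 1 passed the unadjusted one in the main fit (against 11.9% of all genes higher). STAT2, the partner of IRF9 in the factor that binds the ISRE, was at 26.0, 23.5 and 20.5 CPM in ACM and 18.7, 16.4 and 18.7 CPM in UCM. Its groups did not overlap, with a log2 FC of 0.38 (SE 0.12, edgeR adjusted p = 0.0844). STAT2 was called with effective lengths as offsets, with the filter of at least 1 count in total and with the replicate block. IRF1, a factor induced by interferon gamma, had 904, 789 and 691 counts in ACM against 844, 641 and 629 in UCM, which overlap (log2 FC 0.17, SE 0.10). The other members IRF2, IRF3, IRF7 and IRF9 had values between 0.03 and 0.15, and 3 of these 4 changed sign under at least 1 alternative.

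Among interferon-stimulated genes the changes were uneven. Of 21 tested, 2 rose at the adjusted p-value (against 3.35% of all genes) and 6 were higher at the unadjusted one (against 11.9%), and the median log2 FC was 0.16 with a range from -0.35 to 1.68. TRIM25 was at 95.9, 133 and 114 CPM in ACM and 79.9, 66.7 and 74.7 CPM in UCM. The groups of TRIM25 did not overlap, and it rose with a log2 FC of 0.63 (SE 0.12, edgeR adjusted p = 0.0211). GBP2, a GTPase that acts against intracellular pathogens, was low, with 59, 71 and 29 counts in ACM against 18, 12 and 19 in UCM. Every ACM count exceeded every UCM count and GBP2 rose with a log2 FC of 1.68 (SE 0.40, adjusted p = 0.0376). TRIM25 lost its call without ACM 2 (0.51, adjusted p = 0.0529), ACM 3 (0.63, 0.0684), UCM 2 (0.56, 0.0874) or UCM 3 (0.65, 0.0721), and GBP2 lost its call without ACM 1 (1.68, 0.0776), ACM 2 (1.34, 0.167), UCM 2 (1.51, 0.155) or UCM 3 (1.89, 0.0806). RSEM gave GBP2 an effective length of 1581 bases in UCM 2, against a median of 3282, and on the TPM scale it stood at 1.12, 2.12 and 0.75 in ACM and 0.34, 0.58 and 0.44 in UCM, with no call. GBP2 was also not called with effective lengths as offsets.

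Small antiviral membrane and ubiquitin-like proteins formed most of the rest that passed the unadjusted p-value. IFITM1, which blocks viral entry at the cell membrane, had 55, 51 and 45 counts in ACM against 12, 30 and 25 in UCM. These groups did not overlap (log2 FC 1.13, SE 0.37, edgeR adjusted p = 0.102). ISG15 was at 57.1, 62.6 and 60.4 CPM in ACM and 38.7, 54.3 and 53.5 CPM in UCM, again without overlap (0.30, SE 0.12, adjusted p = 0.182). UCM 1 was the lowest library for both genes, and without it the value of ISG15 was 0.16. IFITM3 was at 82.2, 110 and 108 CPM in ACM and 61.8, 87.0 and 83.8 CPM in UCM, with ACM 1 inside the UCM range (0.37, SE 0.16, adjusted p = 0.214, and 0.24 without UCM 1). IFI6, a mitochondrial and endoplasmic reticulum protein, was at 11.9, 14.3 and 17.0 CPM in ACM and 9.86, 11.9 and 11.6 CPM in UCM, with ACM 1 inside the UCM range (0.37, SE 0.15, adjusted p = 0.183, and 0.23 without ACM 3).

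**Figure D3:**
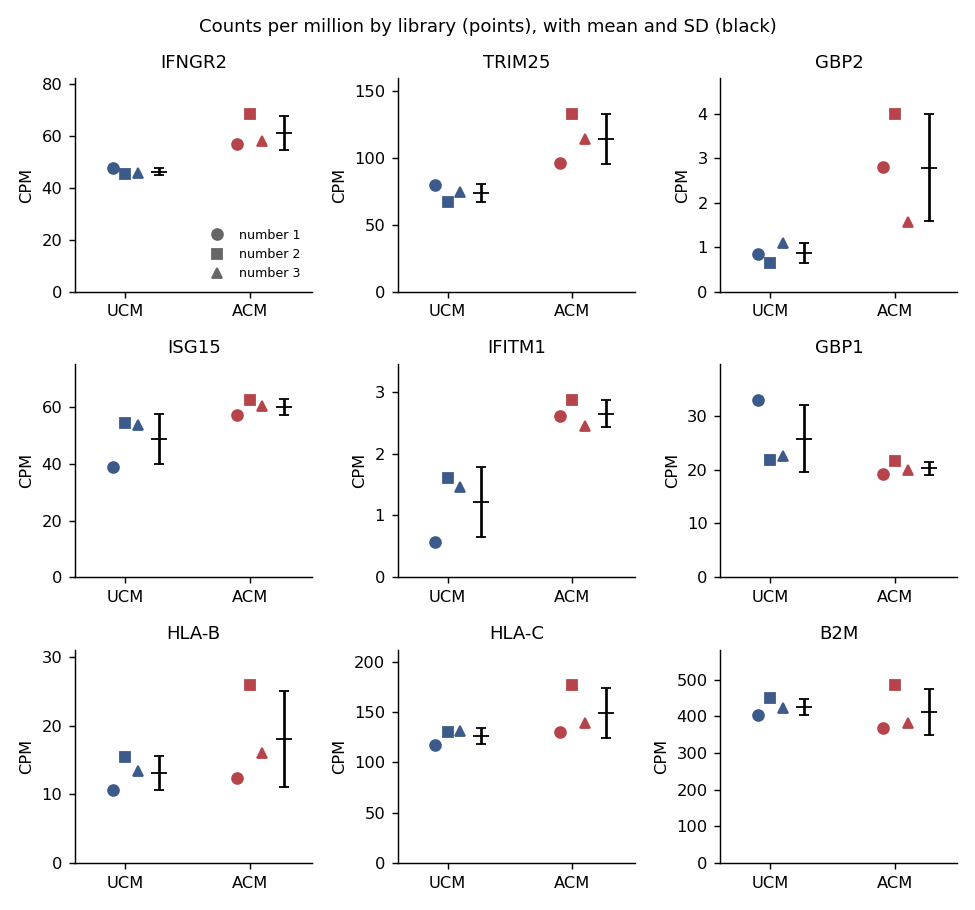
CPM of 9 members in each library, with the library number as the symbol and the mean and SD of 3 libraries in black, on axes from 0. IFNGR2, TRIM25, GBP2, ISG15 and IFITM1 have every ACM point above every UCM point, GBP1 has every ACM point below, and HLA-B, HLA-C and B2M are highest in ACM 2.

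GBP1, a close relative of GBP2, had the opposite order. It was at 19.2, 21.6 and 19.8 CPM in ACM and 33.0, 21.8 and 22.4 CPM in UCM, so that every ACM value was below every UCM value, with ACM 2 and UCM 2 nearly equal. The log2 FC of GBP1 was -0.35 (SE 0.16, edgeR adjusted p = 0.215), and -0.12 without UCM 1. The RNA sensor IFIH1 had 16, 31 and 17 counts in ACM against 13, 5 and 13 in UCM (1.05, SE 0.50, edgeR adjusted p = 0.24, and 0.62 without ACM 2). In CPM the IFIH1 groups barely stood apart, with 0.760 in ACM 1 and 0.758 in UCM 3. In TPM they overlapped, at 0.36, 1.06 and 0.53 in ACM and 0.30, 0.17 and 0.58 in UCM. MX1, a GTPase often read as a marker of type I interferon, had 12, 17 and 59 counts in ACM against 17, 10 and 24 in UCM. Its value of 0.79 (SE 0.66) rested on ACM 3, without which it was -0.26, and it was also below 0 on the TPM scale. The other 12 tested genes of this group, which include IFIT1, IFIT2, IFIT3, IFIT5, OAS3, DHX58, PARP9, PARP14, DTX3L, SAMHD1, IFI35 and IFI44, had values from -0.24 to 0.35, 8 above 0 and 4 below. None of these 12 was called under any alternative, and 9 changed sign under at least 1.

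MHC class I chains were not called by edgeR or DESeq2 at the adjusted p-value. By edgeR 0 passed the unadjusted one, and by DESeq2 HLA-C did. HLA-C, a classical heavy chain, was at 130, 177 and 139 CPM in ACM and 117, 130 and 131 CPM in UCM. ACM 1 lay within the UCM range of HLA-C (log2 FC 0.23, SE 0.11, 95% interval -0.02 to 0.49, edgeR adjusted p = 0.248). HLA-B, the other classical chain, was at 12.4, 25.9 and 16.1 CPM in ACM and 10.6, 15.4 and 13.4 CPM in UCM. Its groups overlapped, with a log2 FC of 0.46 (SE 0.28, interval -0.20 to 1.12, adjusted p = 0.378). Without ACM 2 the values were 0.12 for HLA-B and 0.09 for HLA-C. The nonclassical HLA-E, a ligand of natural killer cell receptors, was at 138, 190 and 160 CPM in ACM and 141, 168 and 160 CPM in UCM (0.06, SE 0.12, interval -0.21 to 0.32). B2M was at 368, 485 and 383 CPM in ACM and 405, 449 and 421 CPM in UCM (-0.05, SE 0.10, interval -0.28 to 0.18). HLA-E and B2M each changed sign when certain single libraries were left out. HLA-F had 0, 0 and 1 counts in ACM against 2, 0 and 0 in UCM. A value that misses the threshold does not show that a chain was unchanged, and for B2M the interval ends at 0.18.

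Set side by side, the class I chains had a median log2 FC of 0.15 over 4 genes and the interferon-stimulated genes one of 0.16 over 21. Single libraries moved both medians. That of class I was 0.01 without ACM 2, 0.10 without UCM 1 and 0.25 without ACM 1, and that of interferon-stimulated genes was 0.08 without ACM 2, 0.08 without ACM 3, 0.10 without UCM 1 and 0.27 without ACM 1. The difference of the medians was -0.01 and ran from -0.09 to 0.09 over the alternatives. Within the groups the spread differed, from -0.05 to 0.46 for class I and from -0.35 to 1.68 for interferon-stimulated genes. By library the groups were read as the median deviation of their genes from each gene's own mean. ACM 2 was the highest library for all 4 class I chains, with a median deviation of 0.32, whereas ACM 3 was at 0.02 and ACM 1 at -0.19. Interferon-stimulated genes were at 0.18 in ACM 2, 0.24 in ACM 3 and -0.18 in ACM 1. In UCM the class I chains were at -0.20, 0.06 and -0.02 and the interferon-stimulated genes at -0.26, -0.05 and 0.00. In both groups the library numbered 1 was the lowest of its medium. The class I median exceeded that of interferon-stimulated genes by 0.14 in ACM 2, while in ACM 3 the difference was -0.22. Over all 43 members, ACM 2 was the highest library for 20, and ACM 1 and UCM 1 were the lowest for 14 and 13. With both libraries numbered 1 left out, an alternative chosen after seeing the data, 4 members were called, against 1743 of all 14393 genes tested. The 4 were IFNGR1, IFNGR2, IFITM3 and TRIM25.

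**Figure D4:**
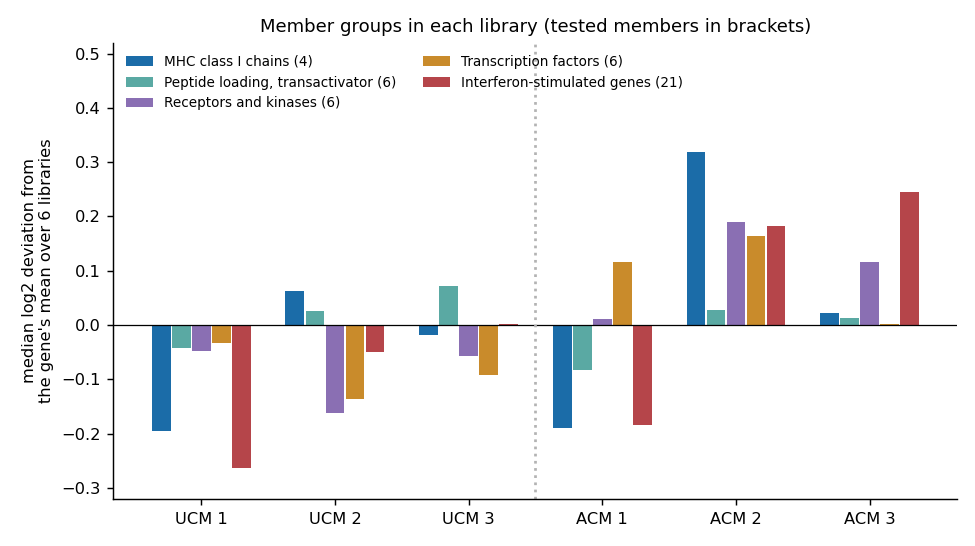
Median log2 deviation of the tested members of each group from the gene's mean over 6 libraries, by library, with UCM to the left of the dotted line and ACM to the right. Class I chains peak in ACM 2 at 0.32, interferon-stimulated genes in ACM 3 at 0.24, and both are lowest in the library numbered 1 of each medium.

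Peptide loading genes and the class I transactivator had the lowest median of the 5 groups, -0.15 over 6 genes, with 4 values below 0 and 2 above. None passed the adjusted p-value by edgeR or DESeq2, and 0 passed the unadjusted one by edgeR. The transporter gene TAP1 was at 91.7, 90.7 and 99.1 CPM in ACM and 93.8, 104 and 108 CPM in UCM, with ACM 3 inside the UCM range (log2 FC -0.12, SE 0.08). TAP1 was at -0.07 without UCM 3. Its partner TAP2 had a value of -0.18 (SE 0.09), or -0.11 without ACM 2 and -0.12 without UCM 1. NLRC5 was at 8.79, 12.7 and 10.5 CPM in ACM and 10.8, 13.6 and 12.4 CPM in UCM (-0.20, SE 0.16), and its value was -0.07 without ACM 1, -0.12 without UCM 2 and -0.34 without ACM 2. TAPBP was at 0.13 (SE 0.08), 0.06 without ACM 2 and 0.20 without ACM 1. The aminopeptidase gene ERAP2 had the value farthest from 0 in the group, -0.21 (SE 0.28, edgeR adjusted p = 0.715), with 27 to 40 counts in ACM against 32 to 44 in UCM, and its sign turned on the TPM scale and with effective lengths as offsets.

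The rest of the pathway was read from further lists. Most interferon genes themselves were at 0. Of the 9 ligand genes, 7, among them IFNB1, IFNG and IFNL1, had a count of 0 in every library and none could be tested. The ligand gene IFNE was detected at low counts, 15, 9 and 7 in ACM against 16, 1 and 0 in UCM. IFNA1 had 4 counts in UCM 1 and 0 elsewhere. The chemokine CXCL10 and the antiviral enzyme RSAD2 had at most 1 count in any library. Of 30 other interferon-stimulated genes, 18 could be tested, of which 0 passed the adjusted p-value by edgeR or DESeq2, 8 were higher and 0 lower by edgeR at the unadjusted one (against 11.9% and 11.5% of all genes), and the median log2 FC was 0.28. In nucleic acid sensing, 1 of 10 tested genes rose (against 3.35% of all genes), MAVS, the mitochondrial adaptor downstream of RIG-I. MAVS was at 307, 298 and 259 CPM in ACM and 246, 211 and 201 CPM in UCM, without overlap (0.39, SE 0.09, edgeR adjusted p = 0.0392). MAVS lost its call under 7 of 15 alternatives, among them without ACM 1 (0.35), ACM 2 (0.36), UCM 2 (0.36) or UCM 3 (0.34). In negative feedback and other signaling, 1 of 9 rose (against 3.35% of all genes), IRF2BP2, a corepressor that binds IRF2. IRF2BP2 had 5476, 5541 and 5165 counts in ACM against 3799, 3542 and 3373 in UCM (0.59, SE 0.08, edgeR adjusted p = 0.00377). The feedback genes SOCS1 (0.53, SE 0.42), SOCS3 (0.15, SE 0.17) and USP18 (-0.12, SE 0.31) and the kinase TYK2 (0.03, SE 0.13) were not called.

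Of 14 genes of the immunoproteasome and other class I presentation, 2 fell and 0 rose at the adjusted p-value by edgeR and by DESeq2. By edgeR 2.21% of all genes fell and 3.35% rose. At the unadjusted p-value of edgeR 1 was higher and 2 were lower (against 11.9% and 11.5% of all genes). The 2 that fell, MICA and MICB, are class I related stress proteins that bind NKG2D and present no peptide. MICA had 632, 557 and 487 counts in ACM against 922, 1056 and 956 in UCM, with no overlap, and fell by 0.83 on the log2 scale (SE 0.12, adjusted p = 0.00467). MICB had 446, 430 and 474 counts in ACM against 710, 679 and 612 in UCM, with no overlap, and fell by 0.57 (SE 0.10, adjusted p = 0.0106), a call lost without UCM 2 (-0.55, adjusted p = 0.0589) or UCM 3 (-0.55). The immunoproteasome subunits PSMB8 (0.01, SE 0.09), PSMB9 (0.09, SE 0.16) and PSMB10 (-0.19, SE 0.14) were not called. Of 10 MHC class II genes only the transactivator CIITA could be tested, with 45, 70 and 42 counts in ACM against 35, 20 and 19 in UCM. Its groups did not overlap (1.11, SE 0.34, adjusted p = 0.0881), and the other class II genes had at most 6 counts in any library.

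Sequence shared between members bears on how reads were assigned. On the canonical GENCODE 44 transcripts the coding sequences of HLA-B and HLA-C were 92.5% identical, with a longest identical run of 66 bases, and those of IFITM1 and IFITM3 were 90.1% identical with a run of 141 bases. IFITM2, 93.9% identical to IFITM3, had 1 count in all libraries together. GBP1 and GBP2 were 82.4% identical with a run of 65 bases. Reads were 150 bases long and paired, so all of these runs were shorter than 1 read, and how RSEM shared reads between the copies was not tested. Annotated genes overlapped 35 of the 49 members. DGKE, on the strand opposite to TRIM25, had 109 to 176 counts in ACM against 124 to 221 in UCM (log2 FC -0.31), against 1241 to 2357 for TRIM25 itself. ENSG00000250264, on the strand of TAP2, had 313 to 555 counts over the 6 libraries. LIPA, opposite to IFIT1, IFIT2 and IFIT3, had 1133 to 1588 counts, far above the 16 to 47 of those 3 genes, and reads from the shared stretches cannot be told apart.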

How the data were processed

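BT-549 cells in ACM and UCM (3 libraries each) were sequenced as polyA-enriched paired reads. According to the sources, the authors used Trim Galore for trimming, STAR for alignment to GRCh38 and RSEM for quantification, and versions, annotation and strand setting are not given in the sources used here. The authors deposited RSEM expected counts (reads shared between similar transcripts, not scaled for depth), TPM values (scaled by effective length and library sum) and effective lengths. A further table by the authors, with fold changes and p-values, was not used.

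Expected counts were rounded and tested in R 4.3.3 with edgeR 4.0.16 (filterByExpr, TMM, robust quasi-likelihood, condition as the only term, Benjamini-Hochberg over 14451 genes, tested on simulated data). The SE is the absolute log2 FC over the square root of F. CPM used TMM library sizes, the coefficient of biological variation was 0.115, and identifiers without version matched GENCODE 44 for 62541 of 63140 genes. Alternatives were DESeq2 1.42.0, RLE size factors, filters that kept genes with 1 or more counts in total or 10 or more in every library, limma-trend (3.58.1) on log2(TPM + 1) and log2(TPM + 0.1), the replicate number as a block, effective lengths as offsets, and each library left out in turn.

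Members, lists and tests were chosen with earlier results of these data known. Full values were given for members past a threshold, class I chains and the largest absolute log2 FC in each group, and for context genes past the adjusted p-value or named by the rule (CIITA, PSMB8, SOCS1 and the like). GBP1, MX1, IFIH1, TAP1, TAP2, TAPBP, NLRC5, IRF1, CD68, other markers and overlapping genes were named after their values were seen. Promoters came from RefSeq on GRCh38.p14, and paralogs were compared by coding sequence, as protein sequences were not used here. 1 planned marker gene is not reported here. There was no entry in that table for HLA-E, NLRC5, IFNAR2, IRF2, IRF3, IRF7, IFIT2, IFITM2, OAS2, OASL, DHX58 and GBP2.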

Additional observations from a re-analysis of the deposited data

How the results depend on the processing

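Counts within 1.5 times the main count, and medians that moved by less than the spread between replicates, numbered 171 under the alternatives, and 29 values moved further. That spread is wide, and with single libraries left out the median log2 FC of class I chains (0.15) ran from 0.0121 to 0.2524, that of interferon-stimulated genes (0.16) from 0.0803 to 0.2742, that of receptors and kinases (0.15) from 0.0925 to 0.2273 and that of all members (0.13) from 0.0596 to 0.2032. Members higher at the adjusted p-value (3) numbered 9 with the filter of at least 1 count in total, where 1 was lower. They numbered 1 on either TPM scale, 6 with the replicate block, and 0 to 4 with single libraries left out. Leaving out ACM 2, UCM 2 or UCM 3 left 0. Over all genes, calls in either direction numbered 804 of 14451 in the main fit and 1724 of 25486 with that filter. They numbered 362 and 372 on the TPM scales, 1612 with the replicate block, and 195 to 1310 with single libraries left out. Members higher at the unadjusted p-value (10) numbered 6 to 14 and UpDEGs (3) 2 to 5 with single libraries left out. Members lower at the unadjusted p-value (0) numbered 1 with DESeq2, 2 with the filter of at least 1 count, 2 with the replicate block, and 0 to 1 with single libraries left out. The share of all genes past the unadjusted p-value was not counted under these alternatives. Shifts in these member counts therefore cannot be told apart from shifts over all genes. The median log2 FC of the loading group (-0.15) was -0.0436 and -0.0408 on log2(TPM + 1) and log2(TPM + 0.1), -0.0159 with effective lengths as offsets, and -0.18 to -0.0823 with single libraries left out. That of the transcription factors (0.11) was 0.2068, 0.2218 and 0.2684 in the first 3 settings, 0.1858 without the libraries numbered 1, and 0.1019 to 0.1844 with single libraries left out, and that of receptors and kinases was 0.2462 without the libraries numbered 1. The cause of these shifts was not tested.

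Signs turned for HLA-E without ACM 2 (-0.0679) or UCM 1 (-0.0022, with single libraries left out up to 0.1731), for B2M (-0.1796 to 0.037 with single libraries left out) without ACM 1 (0.037), ACM 3 (0.0026) or both libraries numbered 1 (0.0068), for ERAP2 on the TPM scales (0.0575, 0.1087) and with length offsets (0.1452), and for MX1 on the TPM scales (-0.0658, -0.274) and without ACM 3 (-0.2607, with other single libraries left out up to 1.2217). HLA-B was called only with the filter of at least 1 count (adjusted p = 0.0344).

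Replicate numbers were not treated as pairs in the main fit. Deviations of libraries with the same number correlated at 0.284, 0.035 and 0.148. ACM 1 correlated at -0.196 with UCM 2 and -0.124 with UCM 3, while ACM 3 correlated best with UCM 2 (0.165). Whether libraries with the same number share more than that number was not tested. The replicate block called 6 members, against 1612 of all 14451 genes tested. The 6 were IFNGR2, STAT2, ISG15, IFITM1, IFITM3 and GBP2, which left out TRIM25. Low counts limit GBP2, IFITM1, IFIH1, MX1 and the 6 untested members.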
